A study of Homo sapiens with 9 samples.

Results

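The genes described here were 10 early-response genes, taken from a named list out of the 58395 genes in each table: the nuclear receptors NR4A1, NR4A2 and NR4A3, the kinase SIK1, the transcription factors FOS, FOSB, JUN, EGR1 and ATF3, and the phosphatase DUSP1. They were measured by RNA-seq in 9 libraries of HCT116, an established human colon carcinoma cell line, grown in medium with serum and with no stimulus named in the labels. All 9 libraries came from cells infected with lentivirus for shSTBD1, a short hairpin against STBD1, which encodes a glycogen-binding protein studied for its role in glycogen autophagy. On that background 3 libraries carried the plvx neo vector alone, 3 the hairpin-resistant construct STBD1 WT and 3 the construct STBD1 W203C, in which a tryptophan of the ATG8-binding motif is replaced by cysteine. No library without the hairpin was analysed here, and each condition is a stable line, so the 3 replicates of a group share that line. The sources do not say how the cultures behind the replicates were separated, and p-values measure the spread between these libraries.

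The list was drawn up with earlier results of these libraries known, and NR4A3 and SIK1 were selected on their fold changes in counts between the constructs, STBD1 W203C against STBD1 WT, where they were among the larger rises. That contrast is therefore given for all 10 genes as a description without a test. The comparisons with plvx neo share libraries with it, and p-values in them are given only for the other 8 genes. The names of the constructs were in doubt. For 197 of 197 genes in a supplementary list, the TPM under STBD1 WT (transcripts scaled to 1 M per library, a level corrected for transcript length) were those of the libraries labelled STBD1 W203C, and the reverse held as well, within 0.006 TPM. The plvx neo values matched their own libraries for 197 of 197 genes. The names given to the deposited tables exchange the constructs in the same way. The sample labels were followed, and the groups are called the libraries labelled STBD1 WT and labelled STBD1 W203C. If the labels were exchanged, every direction between the constructs would turn round and their comparisons with plvx neo would trade places.

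Early-response genes are switched on within minutes of a signal, without new protein synthesis, by factors that are already bound or waiting: CREB, which is activated through cAMP and protein kinase A, and serum response factor (SRF) with its partners of the ERK and actin pathways. Their messages are unstable, so their level follows the recent signalling of a culture. Many of the products are transcription factors. FOS, FOSB and JUN are subunits of the dimeric factor AP-1, NR4A1 to NR4A3 are orphan nuclear receptors that act without a known ligand, and SIK1 is a kinase that feeds back on the pathway by holding the CREB coactivators (CRTC proteins) out of the nucleus.

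The promoters of 5 of these genes are shown because they carry the letters to which CREB and SRF bind and come from genes with different orders among the groups. They are the 250 bases before the annotated start of each gene in RefSeq, on build GRCh38.p14, in the direction of transcription. Capitals mark TGACG, the core of the cAMP response element, read on either strand (CGTCA on the other strand), and the CArG box of SRF. The windows lie at chr9:99821635-99821884 on the plus strand for NR4A3, chr21:43427132-43427381 on the minus strand for SIK1, chr5:172771196-172771445 on the minus strand for DUSP1, chr14:75278578-75278827 on the plus strand for FOS and chr5:138465229-138465478 on the plus strand for EGR1.
NR4A3: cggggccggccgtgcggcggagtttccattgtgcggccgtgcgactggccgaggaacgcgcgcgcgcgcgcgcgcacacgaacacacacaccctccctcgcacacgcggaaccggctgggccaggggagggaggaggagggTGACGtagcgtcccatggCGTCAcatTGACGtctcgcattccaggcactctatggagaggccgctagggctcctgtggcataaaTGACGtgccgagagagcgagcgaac
SIK1: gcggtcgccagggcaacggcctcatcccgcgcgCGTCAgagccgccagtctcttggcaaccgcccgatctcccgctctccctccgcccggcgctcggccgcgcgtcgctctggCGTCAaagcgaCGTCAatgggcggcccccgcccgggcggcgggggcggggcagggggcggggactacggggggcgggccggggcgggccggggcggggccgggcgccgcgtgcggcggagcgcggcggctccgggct
DUSP1: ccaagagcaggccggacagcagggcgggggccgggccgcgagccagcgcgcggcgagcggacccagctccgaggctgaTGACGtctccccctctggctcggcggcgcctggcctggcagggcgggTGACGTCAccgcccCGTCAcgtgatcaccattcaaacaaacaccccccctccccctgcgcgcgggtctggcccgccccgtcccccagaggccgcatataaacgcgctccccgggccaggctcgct
FOS: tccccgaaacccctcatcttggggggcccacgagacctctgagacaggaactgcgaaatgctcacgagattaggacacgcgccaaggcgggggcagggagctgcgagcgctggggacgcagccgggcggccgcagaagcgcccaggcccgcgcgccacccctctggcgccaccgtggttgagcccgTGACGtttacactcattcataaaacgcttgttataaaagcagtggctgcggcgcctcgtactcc
EGR1: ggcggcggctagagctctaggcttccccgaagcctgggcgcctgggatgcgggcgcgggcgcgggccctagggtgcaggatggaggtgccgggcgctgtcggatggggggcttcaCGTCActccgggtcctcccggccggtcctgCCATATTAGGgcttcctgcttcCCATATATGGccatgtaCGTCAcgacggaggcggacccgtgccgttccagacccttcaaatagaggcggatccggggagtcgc

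The NR4A3 window held 4 copies of TGACG, starting at positions -109, -91, -83 and -25 from the start of the gene. SIK1 held 3, all on the opposite strand, at -217, -137 and -126. DUSP1 was the member with the full palindrome TGACGTCA, at -125, which contains TGACG on both strands, and it held 2 further copies of TGACG at -172 and -111. FOS held a single copy at -64, before a TATAAA at -33. EGR1 held 2 copies of TGACG, at -135 and -66, and 2 CArG boxes between them, at -105 and -83. Of the 9 members with a window in RefSeq, 7 held TGACG on either strand, against 21.2% of 35116 promoter windows of the same length (FOSB and JUN being the 2 not printed). TGACGTCA was found in 1.65% of all windows, the CArG box in 1.16% and TATAAA in 10.7%, and among the members in 1 (DUSP1), 1 (EGR1) and 4 (FOS, FOSB, ATF3 and DUSP1). The TATAAA started at -33 in FOS and at -30 in FOSB and DUSP1, but at -230 in ATF3. ATF3 and NR4A1 each had a further window and were counted if either held the letters, whereas the shares are of single windows. The TATAAA of ATF3 was in its window at chr1:212614768-212615017, which lies within the annotated gene, chr1:212565334-212620777. The NR4A1 window at chr12:52037465-52037714 lies within its gene as well, chr12:52022832-52059507. None of the 9 held the AP-1 letters TGANTCA, which 6.57% of all windows held. These matches describe the letters in the windows and are not measurements of binding. NR4A2 had no entry.

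Total expected counts, the RSEM estimate of read pairs per gene, were 16.9 to 23.3 M per library. Replicate libraries differed from each other by more than sampling noise, with a chi-square of 2.12 to 3.87 per gene, and by a common biological coefficient of variation of 4.05% to 4.21% in the 3 comparisons. Summed TPM of 10 colon epithelium genes were 3178 to 3898, although CDX1, VIL1 and LGR5 stayed under 0.5 TPM in every library. The fibroblast genes were 6 of 7 under that level, with COL1A1 as the exception, the endothelial genes 5 of 5, and among the 7 leukocyte genes PTPRC, CD3E and LYZ stayed under it as well. The summed TPM of the leukocyte genes were 2.98 to 3.29 in plvx neo, 5.59 to 8.86 in the group labelled STBD1 WT and 2.82 to 4.48 in that labelled STBD1 W203C. Among them CD68, which encodes a lysosomal protein, had means of 2.28, 5.23 and 1.68 TPM. It was higher in the group labelled STBD1 WT than in plvx neo by 1.01 ± 0.175 on the log2 scale (SE; edgeR, adjusted p = 2.14e-04) and lower in the group labelled STBD1 W203C than in it by 1.48 (edgeR, adjusted p = 8.26e-06). COL1A1 was higher by 0.48 and lower by 0.49 in the same comparisons (edgeR, adjusted p = 9.11e-06 and 9.07e-06), with means of 15.3, 18.8 and 15.6 TPM. Its TPM overlapped in both, at 13.82 to 16.37 in plvx neo, 16.35 to 21.62 and 12.61 to 18.20. It was not called in either by limma on log2(TPM + 1). The part of these genes in the levels of the early genes was not tested. STBD1 itself had 2.75 to 3.84 TPM in the plvx neo libraries, 10.8 to 10.9 in those labelled STBD1 WT and 8.37 to 10.3 in those labelled STBD1 W203C. FAM47E-STBD1, the readthrough gene that shares STBD1 sequence, had 0.96 to 2.41, 41.5 to 46.1 and 34.7 to 38.4 TPM, log2 fold changes of 4.06 ± 0.131 (SE) and 3.78 ± 0.133 against plvx neo. Both were raised with either construct, so their rise does not say which construct a library carried.

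All 10 genes passed the filter on low counts in each comparison. FOS was the most abundant, with a mean TPM over the 9 libraries of 361 ± 24.8 (SD), followed by EGR1 at 268 ± 42.7, NR4A1 at 246 ± 33.3, FOSB at 185 ± 17.7 and ATF3 at 143 ± 26.4. Below them came JUN at 116 ± 21.1, DUSP1 at 77.3 ± 8.94, NR4A2 at 47.6 ± 11.4, SIK1 at 23.2 ± 6.33 and NR4A3 at 5.82 ± 1.90. The order of EGR1 and NR4A1 was not fixed, EGR1 being the higher in only 3 of 9 libraries. Every other gene stood above the next one in 9 of 9 libraries, though the ranges over all libraries overlapped for FOS and EGR1, FOSB and ATF3, ATF3 and JUN, and JUN and DUSP1. NR4A3 therefore rested on the thinnest counts, 256 to 644 expected counts per library, against 10881 to 20214 for EGR1. These are levels of a bulk culture, in which fewer expressing cells and less RNA per cell cannot be told apart.

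The genes fell into 4 orders of the groups by mean TPM. NR4A1, NR4A2, NR4A3, SIK1 and DUSP1 were highest in the libraries labelled STBD1 W203C and lowest in those labelled STBD1 WT. JUN, EGR1 and ATF3 were highest in the libraries labelled STBD1 WT and lowest in plvx neo. FOSB was highest in the libraries labelled STBD1 W203C and lowest in plvx neo, and FOS was highest in the libraries labelled STBD1 WT and lowest in those labelled STBD1 W203C.

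**Figure D1:**
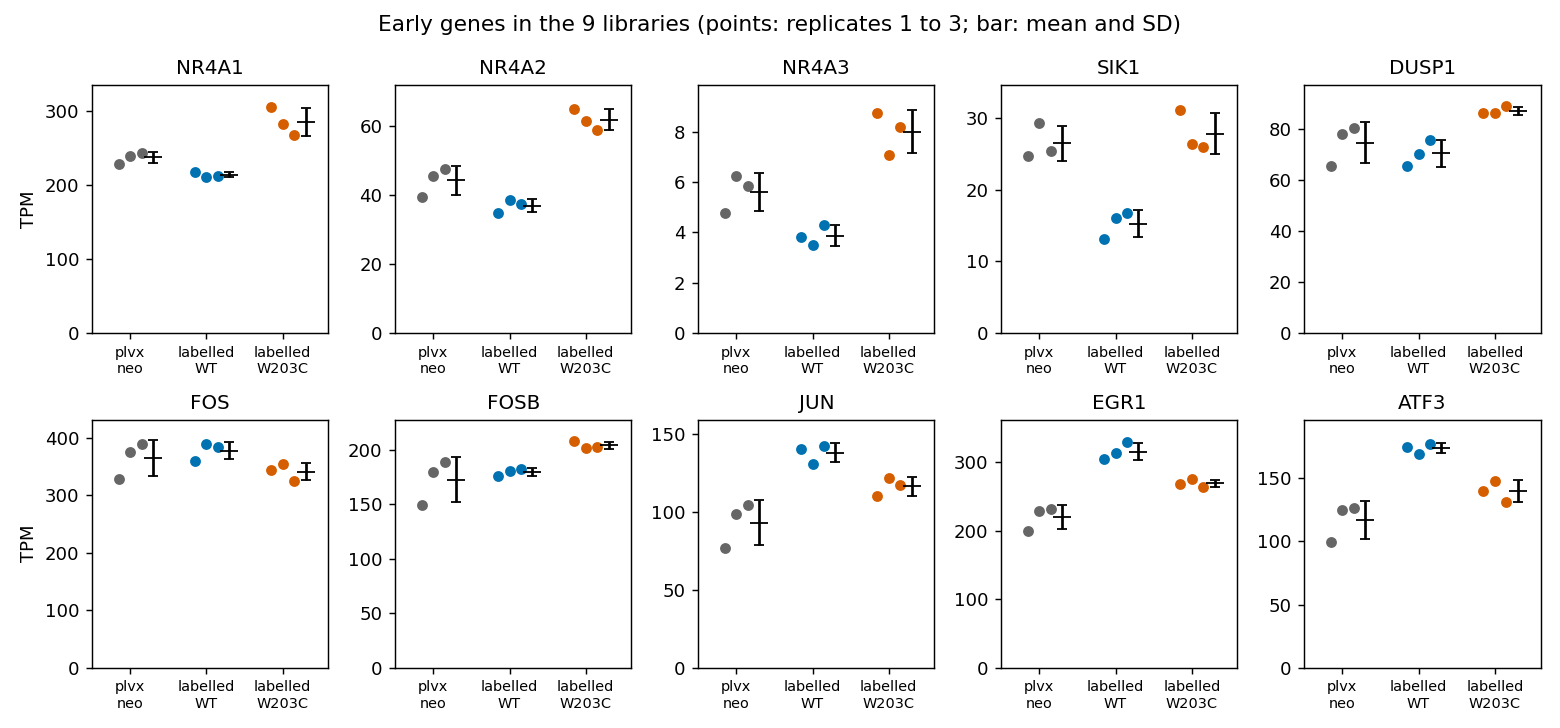
TPM of the 10 early genes in each library, 1 panel per gene on its own linear axis from 0, by group as labelled. Points are replicates 1 to 3 and the bar beside them is the mean with its SD (n = 3): NR4A1, NR4A2, NR4A3, SIK1 and DUSP1 have their lowest mean in the libraries labelled STBD1 WT, whereas JUN, EGR1 and ATF3 have their highest there.

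NR4A3 (ENSG00000119508, chr9:99821855-99866891, plus strand, hg38), a nuclear receptor induced by cAMP and growth signals, had 4.75, 6.22 and 5.82 TPM in plvx neo. The libraries labelled STBD1 WT had 3.81, 3.48 and 4.30 TPM, and those labelled STBD1 W203C had 8.74, 7.07 and 8.19. The 3 groups did not overlap, the group labelled STBD1 W203C standing above plvx neo and the group labelled STBD1 WT below it. Expected counts gave a log2 fold change of 1.09 ± 0.0874 (SE) between the constructs, or 2.13-fold higher in the libraries labelled STBD1 W203C. Against plvx neo the log2 fold change was -0.61 ± 0.0815 in the libraries labelled STBD1 WT and 0.48 ± 0.0826 in those labelled STBD1 W203C. NR4A3 overlaps STX17-DT on the opposite strand, and since the strand setting of the counting was not stated, its reads and those of its neighbour may be mixed.

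NR4A2 (ENSG00000153234, chr2:156324437-156342348, minus strand), the receptor best known from dopamine neurons, had 39.5, 45.6 and 47.5 TPM in plvx neo. It had 34.7, 38.5 and 37.5 TPM in the libraries labelled STBD1 WT and 65.0, 61.4 and 58.9 in those labelled STBD1 W203C. The 3 groups were again separate and in the order seen for NR4A3. NR4A2 fell in the libraries labelled STBD1 WT against plvx neo, with a log2 fold change of -0.28 ± 0.0561 (SE; edgeR quasi-likelihood test, Benjamini-Hochberg adjusted p = 9.40e-04). In the libraries labelled STBD1 W203C it rose by 0.40 ± 0.0493 (same edgeR test, adjusted p = 1.01e-05). On TPM the fall was not called, at -0.25 on log2(TPM + 1) (limma, adjusted p = 0.0751, and 0.175 without a filter), and the rise was called with the filter and not without it (limma, adjusted p = 0.0384 and 0.123). Between the constructs the log2 fold change was 0.68 ± 0.0502.

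NR4A1 (ENSG00000123358, chr12:52022832-52059507, plus strand), an early gene of growth factor and stress signals, was the most abundant receptor of the family, with 229, 239 and 244 TPM in plvx neo. The libraries labelled STBD1 WT had 218, 211 and 213 TPM, and those labelled STBD1 W203C had 306, 283 and 268. Its order was that of the other receptors, with a narrower span: the log2 fold change between the constructs was 0.28 ± 0.0402 (SE). Against plvx neo NR4A1 rose in the libraries labelled STBD1 W203C by 0.20 ± 0.0430 (edgeR, adjusted p = 0.00598). In the libraries labelled STBD1 WT the log2 fold change of -0.083 ± 0.0411 did not pass (edgeR, adjusted p = 0.148). Each of these outcomes changed when 1 library was left out. Without plvx neo replicate 1 the latter came to -0.12 (edgeR, adjusted p = 0.0406), and without replicate 1 of the group labelled STBD1 W203C the former came to 0.15 (edgeR, adjusted p = 0.083). On log2(TPM + 1) the fall was called, at -0.15 (limma, adjusted p = 0.0370), and the rise was not, at 0.26 (limma, adjusted p = 0.0642). NR4A1 overlaps NR4A1AS on the opposite strand.

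SIK1 (ENSG00000142178, chr21:43414483-43427131, minus strand) had 24.8, 29.3 and 25.5 TPM in plvx neo and 13.1, 16.0 and 16.8 in the libraries labelled STBD1 WT. Those labelled STBD1 W203C had 31.2, 26.4 and 26.0 TPM, which overlapped plvx neo and stood clear of the other construct. The log2 fold change in counts was 0.83 ± 0.0635 (SE) between the constructs, or 1.77-fold. Against plvx neo it was -0.60 ± 0.0554 in the libraries labelled STBD1 WT and 0.23 ± 0.0559 in those labelled STBD1 W203C. The length of the SIK1 transcripts, as RSEM weighted them by abundance, was 2704 to 3078 bases in plvx neo, 3206 to 3513 in the group labelled STBD1 WT and 3228 to 3496 in that labelled STBD1 W203C. TPM divide by that length, and the libraries labelled STBD1 W203C were separate from plvx neo in scaled counts but not in TPM.

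The reads of SIK1 are shared with a near-identical copy, ENSG00000275993 (chr21:6111131-6123778, plus strand), which the supplied GENCODE annotation marks as an artificial duplication in the assembly. SIK1 held 50.4% to 53.0% of the counts of the pair in plvx neo, 49.0% to 56.5% in the group labelled STBD1 WT and 49.9% to 54.4% in that labelled STBD1 W203C. The counts of SIK1 alone are therefore roughly those of an even split. The TPM were less even, with means for SIK1 and the copy of 26.5 and 16.1 in plvx neo. These were 15.3 and 10.7 in the group labelled STBD1 WT and 27.9 and 19.2 in that labelled STBD1 W203C. Summed over the pair, TPM were 39.6, 44.99 and 43.1 in plvx neo, 23.8, 28.3 and 26.0 in the libraries labelled STBD1 WT, and 50.4, 45.4 and 45.5 in those labelled STBD1 W203C. The 3 groups no longer overlapped in the sum, with means of 42.6 ± 2.74, 26.0 ± 2.25 and 47.1 ± 2.85 TPM (SD, n = 3). The log2 fold change of the summed counts against plvx neo was -0.60 ± 0.0464 (SE) in the libraries labelled STBD1 WT and 0.22 ± 0.0459 in those labelled STBD1 W203C. Between the constructs it was 0.82 ± 0.0518.

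DUSP1 (ENSG00000120129, chr5:172768096-172771195, minus strand), a phosphatase that switches MAP kinases off, had 65.4, 78.1 and 80.4 TPM in plvx neo. It had 65.3, 69.9 and 75.7 TPM in the libraries labelled STBD1 WT and 86.0, 86.2 and 88.8 in those labelled STBD1 W203C. The last group stood above both others, which overlapped. DUSP1 rose in it against plvx neo by a log2 fold change of 0.18 ± 0.0491 (SE; edgeR, adjusted p = 0.0248), and between the constructs the log2 fold change was 0.27 ± 0.0456. In the libraries labelled STBD1 WT the log2 fold change against plvx neo was -0.083 ± 0.0557 (edgeR, adjusted p = 0.296). The call of the rise was lost without plvx neo replicate 1 (0.12, edgeR, adjusted p = 0.138) and without replicate 1, 2 or 3 of the group labelled STBD1 W203C (edgeR, adjusted p = 0.0775, 0.0573 and 0.0917). The libraries labelled STBD1 WT were called lower than plvx neo once plvx neo replicate 1 was left out (-0.15, edgeR, adjusted p = 0.0385). DUSP1 overlaps ENSG00000253736 on the opposite strand.

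**Figure D2:**
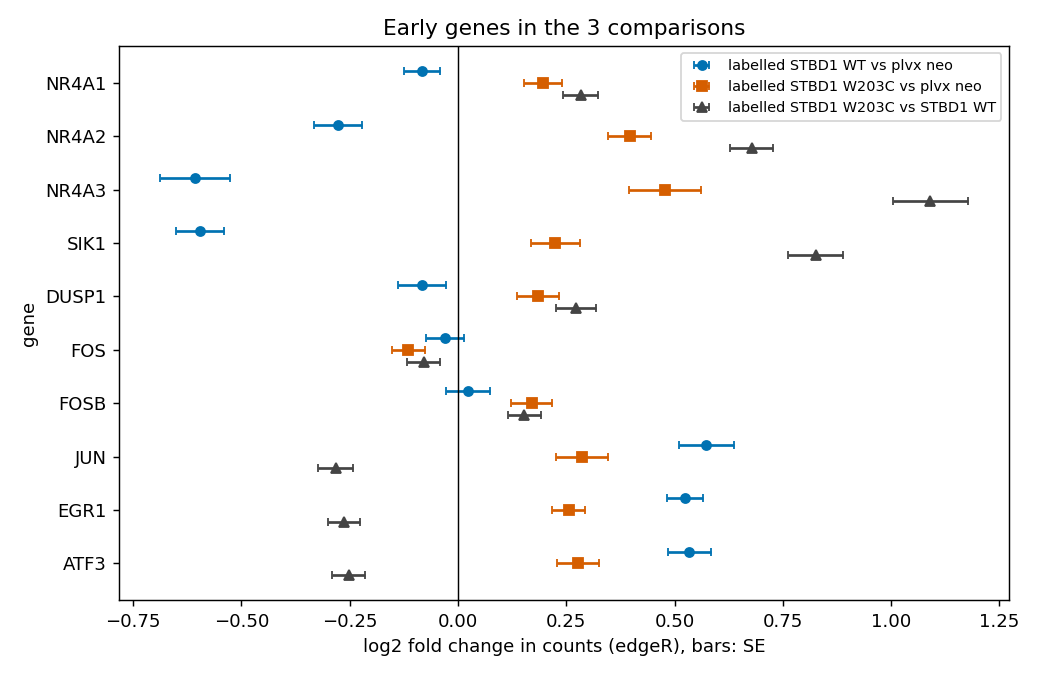
Log2 fold change in counts of the 10 early genes (x axis) in the 3 comparisons, with bars for the SE (n = 3 libraries a group). From NR4A1 to DUSP1 the libraries labelled STBD1 WT lie to the left of 0 and those labelled STBD1 W203C to the right of it, against plvx neo, whereas JUN, EGR1 and ATF3 lie to the right in both and furthest in the libraries labelled STBD1 WT.

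EGR1 (ENSG00000120738, chr5:138465479-138469303, plus strand), a zinc-finger factor and classic SRF target, had 200.0, 229.5 and 231 TPM in plvx neo. It had 304, 313 and 329 TPM in the libraries labelled STBD1 WT and 269, 275 and 265 in those labelled STBD1 W203C. The groups did not overlap, and plvx neo was the lowest. EGR1 rose against plvx neo by a log2 fold change of 0.52 ± 0.0412 (SE) in the libraries labelled STBD1 WT (edgeR, adjusted p = 1.13e-08) and by 0.26 ± 0.0375 in those labelled STBD1 W203C (edgeR, adjusted p = 9.04e-05). Between the constructs the log2 fold change was -0.26 ± 0.0366.

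ATF3 (ENSG00000162772, chr1:212565334-212620777, plus strand), a stress-induced partner of JUN proteins, had 99.2, 125 and 126 TPM in plvx neo. The libraries labelled STBD1 WT had 174, 169 and 177 TPM, and those labelled STBD1 W203C had 140.1, 148 and 131. The order was that of EGR1, and the groups were separate. ATF3 rose by 0.53 ± 0.0493 (SE) on the log2 scale in the libraries labelled STBD1 WT (edgeR, adjusted p = 1.07e-07) and by 0.28 ± 0.0486 in those labelled STBD1 W203C (edgeR, adjusted p = 7.43e-04). Between the constructs the log2 fold change was -0.25 ± 0.0386. ATF3 is also a target of ATF4 in the integrated stress response. Of 7 other genes of that response that were tested, 3 fell against plvx neo in the libraries labelled STBD1 WT, beside 13.9% of all genes called lower, and 3 in those labelled STBD1 W203C, beside 2.67%. CHAC1 fell by 0.85 and 0.68 and TRIB3 by 0.58 and 0.40 on the log2 scale (edgeR, adjusted p between 7.41e-08 and 0.00262). The CHAC1 TPM in the libraries labelled STBD1 W203C, 5.44, 5.18 and 9.17, overlapped plvx neo at 9.10 to 10.61. In that comparison limma on log2(TPM + 1) called 1 of the 7.

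JUN (ENSG00000177606, chr1:58776845-58784048, minus strand), the founding AP-1 subunit, had 76.6, 98.4 and 104 TPM in plvx neo. It had 141, 131 and 142 TPM in the libraries labelled STBD1 WT and 110.0, 122 and 117 in those labelled STBD1 W203C. JUN followed EGR1 and ATF3, with the groups separate. The rise against plvx neo was 0.57 ± 0.0627 (SE) on the log2 scale in the libraries labelled STBD1 WT (edgeR, adjusted p = 1.02e-06) and 0.29 ± 0.0599 in those labelled STBD1 W203C (edgeR, adjusted p = 0.00405). The latter was not called by DESeq2 (0.29, adjusted p = 0.154). Between the constructs the log2 fold change was -0.28 ± 0.0404.

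FOS (ENSG00000170345, chr14:75278826-75282230, plus strand) had 329, 376 and 389 TPM in plvx neo, 360.3, 389 and 384 in the libraries labelled STBD1 WT and 344, 355 and 326 in those labelled STBD1 W203C. The plvx neo libraries overlapped both other groups. The log2 fold change against plvx neo was -0.030 ± 0.0433 (SE) in the libraries labelled STBD1 WT (edgeR, adjusted p = 0.652) and -0.11 ± 0.0387 in those labelled STBD1 W203C (edgeR, adjusted p = 0.0871). Without plvx neo replicate 1 the latter was called, at -0.16 (edgeR, adjusted p = 0.0159), as it was with no filter on low counts, at -0.12 (edgeR, adjusted p = 0.0423). Between the constructs the log2 fold change was -0.079 ± 0.0383. In the libraries labelled STBD1 WT the sign of the FOS difference from plvx neo was the opposite in TPM, where the log2 difference was 0.054. The weighted transcript length of FOS was 1643 to 1675 bases there, 1734 to 1752 in plvx neo and 1732 to 1790 in the libraries labelled STBD1 W203C.

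FOSB (ENSG00000125740, chr19:45467995-45475179, plus strand), which partners JUN proteins as FOS does, had 149, 179 and 189 TPM in plvx neo and 176, 181 and 182 in the libraries labelled STBD1 WT. The libraries labelled STBD1 W203C had 208, 201 and 202.8 TPM, above all others. Against plvx neo the rise in them was 0.17 ± 0.0472 (SE) on the log2 scale (edgeR, adjusted p = 0.0318). This call was lost without plvx neo replicate 1 (0.099, edgeR, adjusted p = 0.172), without replicate 1, 2 or 3 of the group labelled STBD1 W203C (edgeR, adjusted p = 0.161, 0.0526 and 0.0623) and in DESeq2 (adjusted p = 0.256). In the libraries labelled STBD1 WT the log2 fold change of FOSB was 0.022 ± 0.0508 (edgeR, adjusted p = 0.787), and between the constructs it was 0.15 ± 0.0379. FOSB overlaps ERCC1 on the opposite strand.

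Counted together, 4 of the 8 genes whose tests are given were called between the libraries labelled STBD1 WT and plvx neo, 3 of them higher and 1 lower, where 27.8% of 15289 genes were called, 13.9% in each direction. Between the libraries labelled STBD1 W203C and plvx neo, 7 of the 8 were called, all higher, where 5.70% of 15081 genes were called, 3.03% higher and 2.67% lower. The median log2 fold change of the 8 genes was -0.0040 in the former and 0.23 in the latter, beside 0.0061 and -0.0031 for all genes tested. In TPM, 5 and 7 of the 8 did not overlap plvx neo, beside 31.3% and 20.2% of all genes. The plvx neo libraries are the same 3 in each. The second count changed with single libraries and with the unit. Without replicate 1 of the group labelled STBD1 W203C 4 of the 8 were called, without plvx neo replicate 3 the genes called fell from 859 to 459, and limma on log2(TPM + 1) called 1 of the 8 (NR4A2) and 131 genes. Between the constructs, from which the list was drawn, 6 of the 10 had a log2 fold change above 0 and 4 one below it, and all 10 were separate in TPM beside 33.1% of 15052 genes, from which nothing is read. The dispersion that edgeR estimated for each member lay between the 13.5th and the 58.5th percentile of genes tested in the comparisons with plvx neo.

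The plvx neo libraries were not alike for these genes. Replicate 1 had the lowest TPM of the 3 in 10 of 10 members, where it was lowest in 49.0% of 15489 genes, and replicate 3 had the highest in 8 of 10, where it was highest in 40.3%. In CPM (counts brought to a library total of 1 M, with edgeR's factors), replicate 1 was lowest in 9 of 10 members and in 33.7% of all genes, SIK1 being the member that was not. Of 27 other early genes, 17 were lowest in the same library in TPM and 12 in scaled CPM. In scaled CPM 10 of the 27 were highest in that library, and 14 were lowest in plvx neo replicate 2. Without plvx neo replicate 1, the log2 fold changes against plvx neo in the libraries labelled STBD1 WT were -0.33 for NR4A2, 0.48 for EGR1, 0.47 for ATF3 and 0.47 for JUN. Those in the libraries labelled STBD1 W203C were 0.34, 0.21, 0.21 and 0.18. Each of these 8 values was still called (edgeR, adjusted p of 0.0145 or less). The value of JUN in the libraries labelled STBD1 W203C went from 0.29 to 0.18. NR4A3 came to -0.67 and 0.42 and SIK1 to -0.59 and 0.23. Uneven replicates were not confined to plvx neo. In the group labelled STBD1 WT, replicate 1 was lowest in 8 of 10 members in scaled CPM, beside 34.7% of all genes. Replicate 3 of that group was highest in 7 of 10, beside 34.0%. In TPM these were 6 and 7 of 10, beside 34.8% and 37.4%. In the group labelled STBD1 W203C, replicate 1 was instead highest in 6 of 10 in scaled CPM, beside 32.2%.

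**Figure D3:**
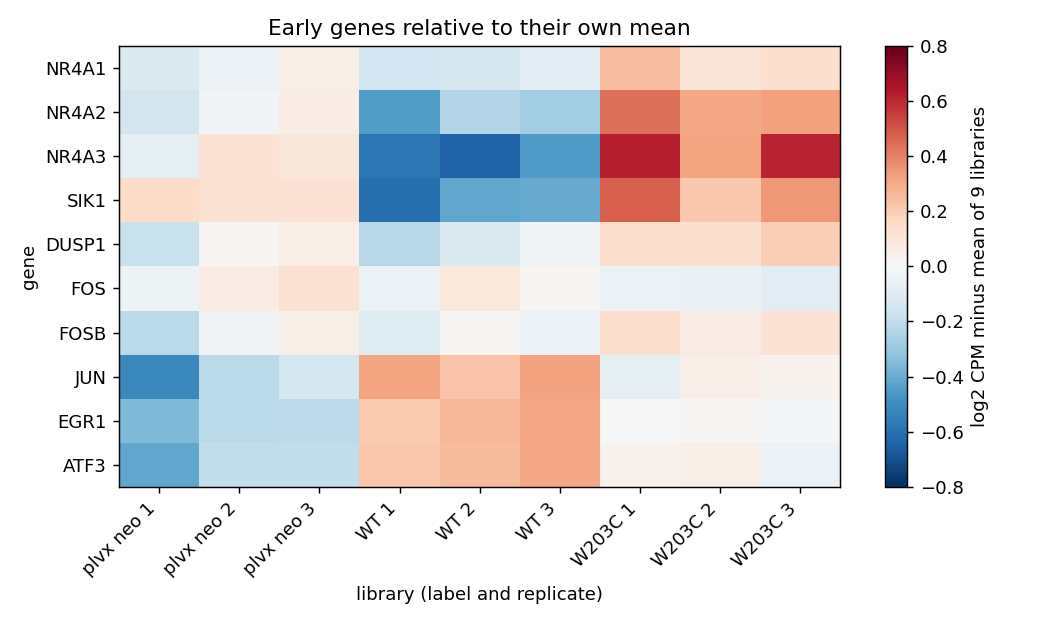
Log2 CPM of each early gene (rows) in each library (columns, by label and replicate) minus the mean of that gene over the 9 libraries. NR4A3 ranges from -0.65 in replicate 2 of the group labelled STBD1 WT to 0.62 in replicate 1 of that labelled STBD1 W203C, and plvx neo replicate 1 is the lowest column for JUN, at -0.52, EGR1 and ATF3.

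Other early genes were examined from a list of 27, of which 26 were tested and NPAS4 was not. In the libraries labelled STBD1 WT 17 rose and 1 fell against plvx neo, with a median log2 fold change of 0.24 beside 0.0061 for all genes tested, and 69.2% were called beside 27.8%. In those labelled STBD1 W203C 13 rose and 3 fell, with a median of 0.14 beside -0.0031 and 61.5% called beside 5.70%, though limma on log2(TPM + 1) called 2 of the 26. Between the constructs 4 rose and 13 fell, with a median of -0.12 beside -0.0078 and 65.4% called beside 27.9% of 15052 genes (14.5% higher and 13.4% lower). EGR2, a relative of EGR1, had 5.80, 7.45 and 8.64 TPM in plvx neo, 15.8, 15.1 and 16.6 in the libraries labelled STBD1 WT and 9.94, 10.1 and 8.88 in those labelled STBD1 W203C. It rose against plvx neo by 1.22 ± 0.0860 (SE; edgeR, adjusted p = 2.48e-09) and 0.44 ± 0.0925 (edgeR, adjusted p = 0.00409) on the log2 scale, and fell between the constructs by 0.77 (edgeR, adjusted p = 3.69e-08). EGR3 had 5.97, 8.01 and 8.20 TPM in plvx neo. It had 11.85, 9.69 and 12.87 TPM in the libraries labelled STBD1 WT and 13.7, 14.4 and 14.2 in those labelled STBD1 W203C. Both groups stood above plvx neo in TPM. In the libraries labelled STBD1 W203C the rise was 0.74 ± 0.0721 (edgeR, adjusted p = 2.45e-07). CSRNP1 and HBEGF, which encodes an EGF receptor ligand, were higher with the construct labelled STBD1 W203C than with the other, by 0.24 and 0.28 (edgeR, adjusted p = 2.77e-04 and 0.0155).

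Among 11 other AP-1 subunits tested, of 12 listed, 4 rose and 2 fell in the libraries labelled STBD1 WT against plvx neo, and 4 rose and 1 fell in those labelled STBD1 W203C, 54.5% and 45.5% of those tested beside 27.8% and 5.70% of all genes. JUNB had 178, 188 and 201 TPM in plvx neo, 320.1, 298 and 307 in the libraries labelled STBD1 WT and 241, 258 and 265 in those labelled STBD1 W203C, the order of its relative JUN. It rose by 0.70 ± 0.0395 (SE; edgeR, adjusted p = 8.69e-11) and by 0.39 ± 0.0407 (edgeR, adjusted p = 7.41e-07). JUND rose likewise, by 0.63 ± 0.0440 (edgeR, adjusted p = 2.20e-09) and 0.40 ± 0.0474 (edgeR, adjusted p = 4.34e-06). Between the constructs JUNB fell by 0.31 and JUND by 0.22 (edgeR, adjusted p = 9.28e-06 and 6.22e-04). JDP2, a repressor that dimerises with JUN proteins, fell in both comparisons with plvx neo, by 0.58 and 0.39 (edgeR, adjusted p = 4.35e-04 and 0.040).

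Other targets of CREB were called in both directions. Of 10 tested among 12 listed, 2 rose and 2 fell in the libraries labelled STBD1 WT against plvx neo, 1 rose and 1 fell in those labelled STBD1 W203C, and 1 rose and 2 fell between the constructs, beside 27.8%, 5.70% and 27.9% of all genes called. PDE4B, a cAMP phosphodiesterase, had the order of NR4A3 in mean TPM, with 47.8 in plvx neo, 43.5 in the libraries labelled STBD1 WT and 54.1 in those labelled STBD1 W203C. It rose in the last group by 0.15 against plvx neo and by 0.27 against the other construct (edgeR, adjusted p = 0.0321 and 3.41e-04). Its TPM in the libraries labelled STBD1 WT, 39.91, 49.15 and 41.29, overlapped plvx neo at 46.8 to 48.7. No fall of PDE4B was called there. RGS2, a regulator of G proteins, fell by 0.51 and 0.57 in the comparisons with plvx neo (edgeR, adjusted p = 7.05e-06 and 1.24e-05). Median log2 fold changes of the list were 0.036, -0.0053 and -0.056.

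Of 23 genes of the cAMP and CREB machinery, 4 rose and 2 fell in the libraries labelled STBD1 WT against plvx neo, 3 rose in those labelled STBD1 W203C, and 3 rose and 2 fell between the constructs. These were 26.1%, 13.0% and 21.7% of the list, beside 27.8%, 5.70% and 27.9% of all genes, so the first and the last were no larger than the share of all genes. PRKACB, a catalytic subunit of protein kinase A, rose by 0.31 ± 0.0571 (SE) in the libraries labelled STBD1 W203C against plvx neo (edgeR, adjusted p = 0.00103). The CREB coactivator gene CREBBP was 0.30 ± 0.0438 higher there than with the other construct (edgeR, adjusted p = 3.01e-05). Its TPM overlapped between the constructs, at 16.4 to 20.3 and 13.6 to 18.4. Genes for adenylyl cyclases, which make cAMP, were among the falls. ADCY3 fell by 0.19 in the libraries labelled STBD1 WT against plvx neo (edgeR, adjusted p = 0.00494). Between the constructs ADCY9 fell by 0.24 and the kinase gene STK11 by 0.20 (edgeR, adjusted p = 0.0170 and 0.00136). CRTC1, a coactivator whose entry into the nucleus SIK1 opposes, rose against plvx neo by 0.27 in the libraries labelled STBD1 WT and by 0.33 in those labelled STBD1 W203C (edgeR, adjusted p = 0.0340 and 0.0412). In TPM CRTC1 overlapped plvx neo (3.91 to 5.83) in both groups, at 5.55 to 6.04 and 5.65 to 6.45. Among 13 genes of the SRF partners and the ERK cascade, 15.4% and 7.69% were called against plvx neo, beside 27.8% and 5.70% of all genes. ELK3 rose by 0.21 in the libraries labelled STBD1 WT (edgeR, adjusted p = 0.00276) and fell by 0.19 in those labelled STBD1 W203C (edgeR, adjusted p = 0.0271). MAPK3 rose as well, by 0.17, in the libraries labelled STBD1 WT (edgeR, adjusted p = 0.0371), and no other of the 13 was called in these comparisons. DESeq2 called 1 of the 13 against plvx neo in the libraries labelled STBD1 WT and 0 in those labelled STBD1 W203C. With limma on log2(TPM + 1) 0 were called in either. The ELK3 TPM in the libraries labelled STBD1 W203C, 18.8 to 21.0, overlapped plvx neo at 20.4 to 23.8. Of 3 listed RXR genes, retinoid receptors that partner some NR4A receptors, 2 were tested. Between the constructs 1 of the 2 was called, beside 27.9% of all genes. This was RXRB, which fell by 0.19 (edgeR, adjusted p = 0.0123). DESeq2 and limma on log2(TPM + 1) called 0 of the 2.

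**Figure D4:**
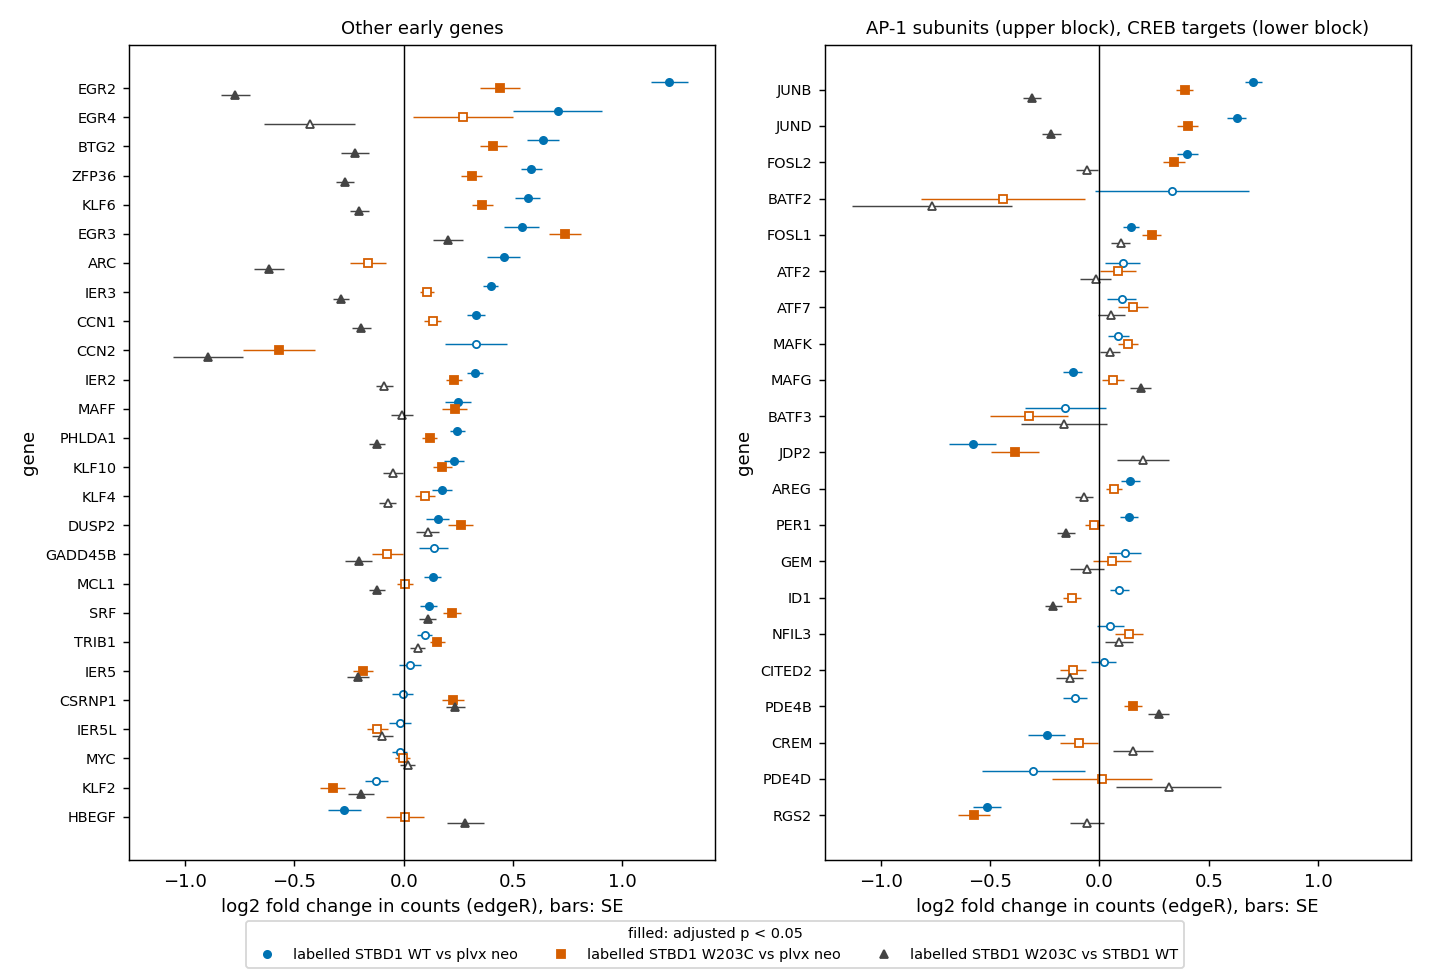
Log2 fold change in counts (x axis, bars for the SE) of the other early genes, AP-1 subunits and CREB targets in the 3 comparisons, filled where called by edgeR. EGR2, JUNB and JUND lie to the right against plvx neo, at 1.22, 0.70 and 0.63 in the libraries labelled STBD1 WT, whereas between the constructs they lie to the left.

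Heat shock genes had the order of the receptors between the constructs. Of 10, 9 fell and 1 rose in the libraries labelled STBD1 WT against plvx neo, beside 13.9% of all genes called in each direction, and 8 rose from the group labelled STBD1 WT to that labelled STBD1 W203C, beside 14.5% called higher, with median log2 fold changes of -0.32 and 0.31. In the libraries labelled STBD1 W203C 1 of the 10 was called against plvx neo, beside 5.70% of all genes, with a median of -0.012. The NR4A receptors, by contrast, had higher mean TPM there than in plvx neo. The summed TPM of the list were 6218 to 6602 in plvx neo, 4863 to 5072 in the group labelled STBD1 WT and 6379 to 6864 in that labelled STBD1 W203C. HSPA1B, an inducible HSP70 gene, differed between the constructs by 0.61 ± 0.0591 (SE; edgeR, adjusted p = 1.88e-07). The part of this difference in the levels of NR4A3 and SIK1 was not tested.

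The genes whose log2 CPM were most like those of 5 members were sought among 11318 genes, with Pearson r over the 9 libraries as the measure. The 9 points fall into 3 groups and the genes were measured in the same libraries, so r is given as a description. NR4A1 was most like NR4A2 (r = 0.957), ADM5 (0.954) and POM121 (0.939). EGR1 was most like ZFP36, which encodes a protein that destabilises early messages (0.992), ATF3 (0.992) and EGR2 (0.984), so 3 early genes headed its list. NR4A3 was most like USP15 (0.984), GCN1 (0.982) and PFAS (0.976), and SIK1 like POP4 (0.995), SMG8 (0.992) and ABCE1 (0.989). FOS was most like SLX4 (0.953), RCAN1 (0.913) and NUBPL (0.912).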

How the data were processed

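RNA-seq of 9 HCT116 libraries, 3 a group, was analysed. Per the study's methods, TRIzol was used to extract RNA and a NEBNext Ultra kit to make libraries, and the authors removed low-quality reads. Per the labels, reads were aligned to hg38 with STAR 2.7.1a and quantified with RSEM 1.3.1. The gene models were those of Ensembl release 93. The deposited tables hold the RSEM expected count, the TPM and the abundance-weighted transcript length of each gene in bases, as the authors made them. RSEM divides read pairs that fit several transcripts or copies between them, which affects SIK1. Whether counting used strand is not given in the sources used here. Counts made with another tool were not used here.

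Expected counts were made whole by rounding. For each comparison its 6 libraries were fitted alone, as the study's methods compared pairs of groups: filterByExpr, TMM scaling and the two-sided quasi-likelihood test of edgeR 4.0.16 in R 4.3.3, adjusted by Benjamini-Hochberg over all genes tested and called below 0.05. Every adjusted p given for edgeR is from this test. The SE is the log2 fold change divided by the root of the F statistic. Fold changes on TPM used limma 3.58.1 on log2(TPM + 1). The scripts were tested on simulated data. Promoters came from a RefSeq table, and gene symbols were matched by Ensembl ID, with 41885 of 58395 IDs carrying a symbol and all listed genes found. Alternatives were DESeq2 1.42.0, DESeq2 size factors, no filter, 1 fit of all 9 libraries, a replicate block, TPM with pseudocounts of 1 and 0.1, SIK1 summed with its copy, and leaving out each library.

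Members and lists were chosen with earlier results of these data known. All 10 members were named whatever their result. Counts of members called were planned over all 10 and between the constructs as well. They are given over 8 genes and against plvx neo only, since NR4A3 and SIK1 were selected on the difference between the constructs. From each other list up to 2 called genes with the largest rise and up to 2 with the largest fall in each comparison could be named, and the 3 most similar genes for NR4A1, NR4A3, SIK1, FOS and EGR1 were named, among genes averaging 5 CPM or more.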

Additional observations from a re-analysis of the deposited data

How the results depend on the processing

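Over all alternatives, 178 values of the 8 genes tested against plvx neo kept their direction and their side of the threshold, 34 were no longer called, 6 were newly called and 6 changed sign. Of the values given without a test, 166 moved by at most 1 SE and 33 by more, with no change of sign. No alternative moved the median of all genes by over 0.1 on the log2 scale. The sign changed for FOS between the libraries labelled STBD1 WT and plvx neo, from -0.030 to 0.054 by limma on log2(TPM + 1), to 0.054 with a pseudocount of 0.1, to 0.054 without a filter and to 0.0026 without plvx neo replicate 3 (its range over the fits that left out 1 library was -0.074 to 0.0026). It changed for FOSB in the same comparison, from 0.022 to -0.050 without plvx neo replicate 1 and to -0.0063 without replicate 2 of the group labelled STBD1 WT (range over such fits -0.050 to 0.078). None of these values was called.

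Tests on TPM called fewer genes. By limma on log2(TPM + 1), on log2(TPM + 0.1) and without a filter, 1751, 1749 and 970 genes were called between the libraries labelled STBD1 WT and plvx neo, where edgeR called 4254. Between those labelled STBD1 W203C and plvx neo the counts were 131, 115 and 15, where edgeR called 859, and between the constructs 1828, 1807 and 991, where edgeR called 4202. Of the 8 genes tested, limma without a filter called 2 (EGR1 and ATF3) between the libraries labelled STBD1 WT and plvx neo, where edgeR called 4, and the fall of NR4A2 there was called by limma under none of these 3 settings. Between those labelled STBD1 W203C and plvx neo limma called 1 of the 8 (NR4A2) with either pseudocount and 0 without a filter, where 7 had an unadjusted p below 0.05, edgeR called 7 and DESeq2 5. In the last 2 comparisons 74.0% and 68.8% of the genes called on log2(TPM + 1) were higher, beside 53.2% and 51.8% by edgeR. The cause was not tested.

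Leaving out 1 library gave 3317 to 3794, 459 to 818 and 3307 to 3618 genes called in the 3 comparisons, and 4 to 6 and 4 to 7 of the 8 genes tested against plvx neo. The lowest counts between the libraries labelled STBD1 W203C and plvx neo came without plvx neo replicate 3 (459 genes) and without replicates 1 and 2 of the group labelled STBD1 W203C (501 and 543). Without replicate 1 of that group, NR4A1, FOSB and DUSP1 were not called.

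Over all genes tested, replicate numbers did not pair the libraries. Deviations of libraries with the same number correlated at 0.0139 on average (-0.0124 to 0.0677) and those with different numbers at -0.00694. The members alone were not examined in this way. In scaled CPM replicate 1 was lowest in 9 of 10 members in plvx neo and 8 of 10 in the group labelled STBD1 WT. In that labelled STBD1 W203C it was lowest in 1 of 10. With the replicate number as a block, 4400, 1003 and 3662 genes were called, and 4 and 7 of the 8 genes tested against plvx neo, with no call among these changed. DESeq2 size factors and the fit of all 9 libraries changed none of these calls either. NR4A3 had the fewest counts among the members, 256 to 644 per library.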
